A study of Homo sapiens with 8 samples.

Results

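SLFN5, SLFN11, SLFN12 and SLFN13, members of the Schlafen gene family, were read on dual-color whole human genome arrays of cells derived from H460, an established human non-small-cell lung cancer (NSCLC) line. The 4 genes were chosen with results of these arrays known, and their probes were selected on the accession that each probe carries, which gave 5 of the 41000 probes of the array and 4 of its 32642 gene names. SLFN5, SLFN11 and SLFN12 had 1 probe each and SLFN13 had 2. Since the selection read the ratios of both populations over H460 cells, the values of these genes are given as a description, with no test.

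H460 cells, the parental line, were grown in RPMI medium with serum. Cisplatin-resistant cells (H460R) were obtained from H460 cells by a single exposure to 0.5 μg/mL of cisplatin during 72 h, were then kept without the drug, and grew in the same serum-containing medium. Cancer stem cells (CSCs, H460C) were obtained from H460 cells without adherence in a defined medium that contained N2 supplement, EGF and FGF, so that medium, attachment and population cannot be told apart. Each derived population had 2 RNA samples, each hybridized on 2 arrays with the dyes swapped against H460 RNA, and 1 H460 RNA sample is named in the labels of all 8 arrays. The labels do not say whether the RNA samples came from separate cultures, so the spread between them may be technical. Each population lay on its own slide, and slide and population cannot be told apart.

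Schlafen proteins are products of interferon-inducible genes that lie in a cluster on human chromosome 17. SLFN11 is recruited to stressed replication forks through the single-strand binding complex RPA, blocks replication there, and cleaves tRNAs, and its expression is known to sensitize cancer cells to DNA-damaging drugs, platinum compounds included. SLFN13 is a nuclease of tRNA and rRNA, SLFN12 is activated by binding to the phosphodiesterase PDE3A, and SLFN5 is a nuclear member of the family linked to interferon responses. SLFN11 is often silenced in tumor cells through its promoter, by DNA methylation or by the histone methyltransferase EZH2.

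The region in front of SLFN11, the gene with the lowest ratio of the family in H460R, is shown because that silencing acts there. RefSeq promoter sequences were found for SLFN11 and SLFN12. The 250 bases before the SLFN11 start site lie at chr17:35373622-35373871 on the minus strand of GRCh38.p14, and capitals mark each CG pair, the site of DNA methylation.
SLFN11: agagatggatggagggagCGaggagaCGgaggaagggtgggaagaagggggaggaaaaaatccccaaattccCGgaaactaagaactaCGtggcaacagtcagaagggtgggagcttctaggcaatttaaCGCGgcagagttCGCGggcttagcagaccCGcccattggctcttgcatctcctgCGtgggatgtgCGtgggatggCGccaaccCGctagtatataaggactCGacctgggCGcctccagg
The window held 15 CG pairs, compared to a median of 11 in the windows of the same length of 27305 RefSeq promoters, and 59.2% of these windows held as many or fewer. GGAA, the core that ETS factors bind, or its reverse complement TTCC occurred 5 times, and 1 of these sites overlaps a CG pair. At least 1 such site was found in 92.8% of all windows, with a median of 3, and 90.7% held as many as SLFN11 or fewer. The SLFN12 window also held 5. GAAANNGAA, part of the interferon-stimulated response element, was found on neither strand, and 7.06% of all windows held it. Methylation was not measured on these arrays, and the matches describe only the letters of the window.

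SLFN11 RNA was much lower in the resistant cells and moderately lower in the CSCs. The log2 ratio of H460R over H460 was -2.88 and -2.32 on the arrays of replicate 1, with H460R in Cy3 and in Cy5, and -2.62 and -2.69 on those of replicate 2. With the arrays of a dye-swap pair averaged, the ratio was -2.63 ± 0.0376 (SD, n = 2), or 6.18-fold lower than in H460 cells. All 4 arrays lay far below 0 in both dye orientations, and their order did not follow the dye. The authors' processed table gave -2.97, -2.51, -2.57 and -2.69 on the same arrays, in the same order. The log ratios computed by Feature Extraction, used as an alternative, gave a mean of -3.48.

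In H460C the SLFN11 ratio was -0.68 and -0.74 on the arrays with H460C in Cy3. The spots of the 2 arrays with H460C in Cy5 carried the mark of a non-uniform outlier and were left out, so the H460C value of -0.71, or 1.64-fold lower than in H460 cells, rests on 2 arrays in 1 dye orientation. With the marks ignored these spots gave -0.52 and -0.42, and the H460C value became -0.59. The authors' processed table, in which no mark was applied, gave -0.71, -0.60, -0.77 and -0.46, with a mean of -0.64. Every H460C value was below 0. Between the H460C replicates no difference beyond hybridization noise was found, and no SD is therefore given for H460C. The tests used further below still took its replicates as separate samples.

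SLFN5 followed the opposite order. In H460C its log2 ratio was -1.09 and -1.37 on the arrays of replicate 1, with H460C in Cy3 and in Cy5, and -1.02 and -1.46 on those of replicate 2, with a mean of -1.23, or 2.35-fold lower than in H460 cells. In H460R it was 0.10 and -0.16 on the arrays of replicate 1 and 0.11 and -0.43 on those of replicate 2, with a mean of -0.09 ± 0.0923 (SD, n = 2). The H460C arrays all lay below 0. The H460R arrays lay on both sides of 0, above it with H460R in Cy3 and below it with H460R in Cy5, and the direction of SLFN5 in H460R also turned with median centring, which gave 0.08. In H460C the arrays in Cy5 were likewise the lower ones, with a mean of -1.41 compared to -1.05 in Cy3. The authors' processed table gave a mean of -1.29 in H460C and of -0.15 in H460R.

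**Figure D1:**
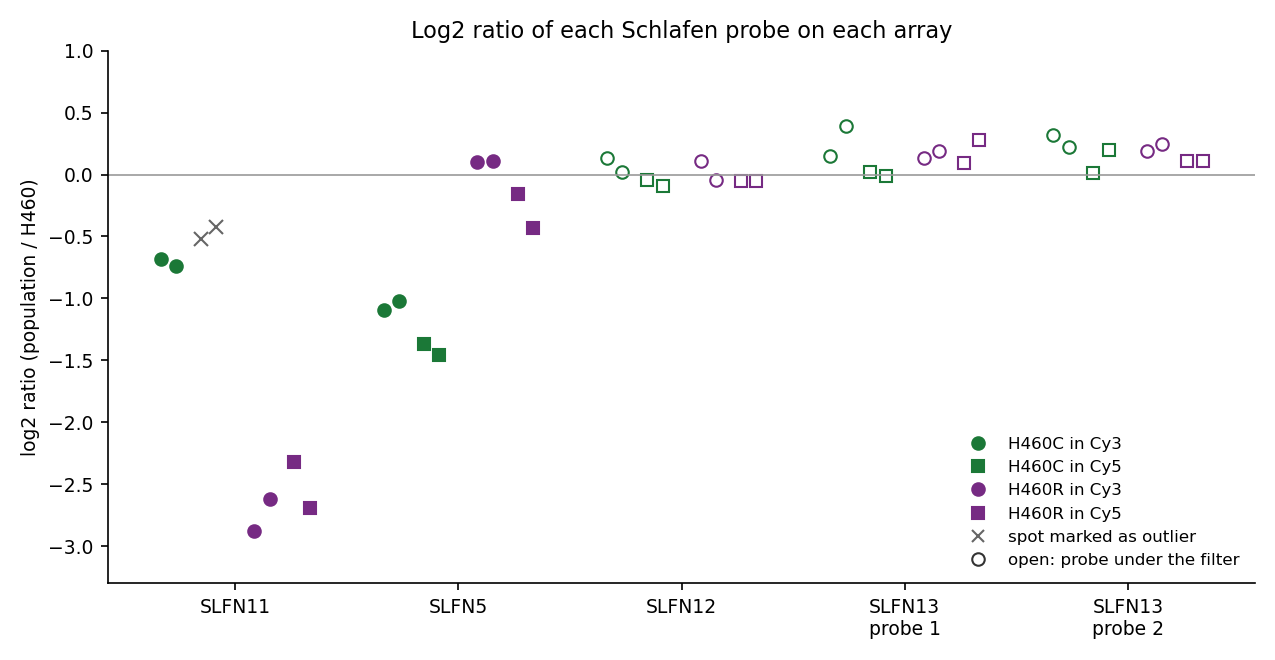
Log2 ratio of each Schlafen probe (y axis) on each of the 8 arrays, with H460C in green and H460R in purple, circles for the population in Cy3 and squares for Cy5, crosses for the 2 SLFN11 spots marked as outliers (values with the marks ignored), and open symbols for probes under the filter on dim probes. SLFN11 lies between -2.88 and -2.32 in H460R, SLFN5 lies between -1.46 and -1.02 in H460C and around 0 in H460R, and the SLFN12 and SLFN13 probes lie near 0 without being well above background.

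The spots behind these ratios were bright, with the exception of SLFN11 in H460R. With the populations in Cy3, the deposited median intensity of the SLFN11 spot was 1022 and 936 units for H460C, compared to 2134 and 2002 for H460 on the same arrays. On the matching H460R arrays it was 124 and 112.5 for H460R, compared to 1522 and 920 for H460. With H460C in Cy5, on the arrays with the marked spots, it was 1956.5 and 2227.5 for H460C, compared to 964 and 985.5 for H460, before normalization of the channels. With H460R in Cy5 it was 182 and 416 for H460R, compared to 472 and 1084 for H460. The local background of the SLFN11 spots was between 19 and 55 units, and the signal was well above background in both channels of all 8 arrays. SLFN11 was thus dimmer in H460R than in H460 on each of these arrays and still detected, as a level and not as a bound.

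The SLFN5 spot reached 593 and 612 units for H460C in Cy3, compared to 1613 and 1563 for H460. With H460C in Cy5 it reached 1663 and 1732 units, compared to 1570 and 1559 for H460 before normalization. On these arrays the median over all spots was 234 and 244 units in the red channel and 103 and 106 in the green. For H460R it reached 827 and 778 units in Cy3 and 3569 and 2092.5 in Cy5. SLFN5 was well above background in both channels of all 8 arrays and carried no mark, and no spot of SLFN5 or SLFN11 was saturated. In bulk RNA of this kind, fewer cells that express a gene and less RNA per cell cannot be told apart.

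**Figure D2:**
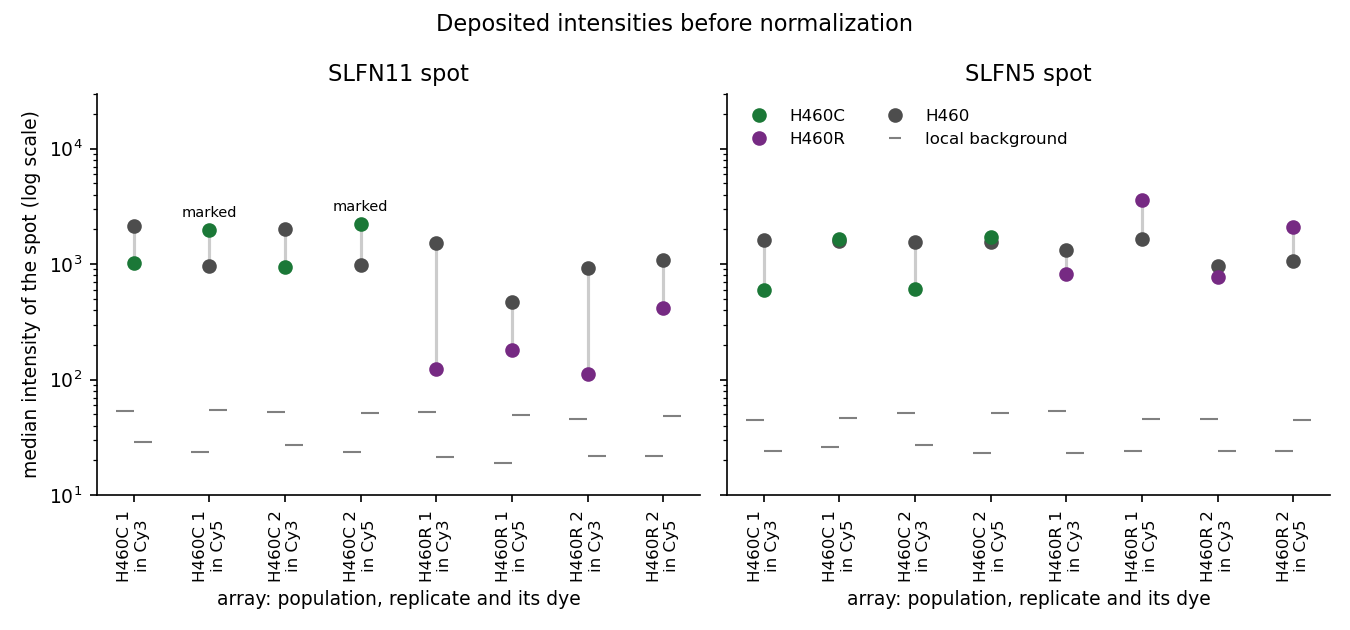
Deposited median intensity of the SLFN11 and SLFN5 spots in both channels of each array, before normalization, on a log axis, with H460C in green, H460R in purple, H460 in gray, dashes for the local background, and "marked" over the 2 outlier spots. SLFN11 falls to 112.5 to 416 units in H460R, above a background of 19 to 52 units on these arrays, while the SLFN5 spot is at 593 units or more in all channels.

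SLFN12 and SLFN13 could not be measured in these cells. The SLFN12 probe was well above background in 0 of 16 array channels. The SLFN13 probes were well above background in 1 of 32, the channel of H460C replicate 2 in Cy5 for 1 of the probes. Their median intensities were between 46 and 64 units in green, over a local background of 19.5 to 26, and between 66 and 97.5 in red, over 43.5 to 56. The log2 ratios of the 3 probes lay between -0.09 and 0.39 on the 8 arrays, in the authors' table between -0.09 and 0.3, and no fold is given, since both sides were not well above background. Of the other Schlafen genes, SLFNL1, a Schlafen-like gene on another chromosome, had 1 probe that was well above background in 0 of 16 channels, and no probe matched SLFN12L or SLFN14. Of the 5 member probes, 2 thus passed the filter on dim probes. The sequences of the probes were not used here, and whether a probe also binds RNA of another family member was not tested.

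Among the 26014 probes that passed the filter with all ratios, SLFN11 had the fourth lowest mean log2 ratio in H460R. UNC5B (-2.83), a probe of the accession CR749561 (-2.67) and PCK2 (-2.66) were lower, and JDP2 (-2.61) came next. This order depends on the processing. KLHDC7B, which lay above SLFN11 here (-2.46), lay below it with the log ratios of Feature Extraction (-4.52 compared to -3.48). In H460C 6.68% of the probes were as low as SLFN11 or lower. SLFN5 had the reverse placement, with 1.81% of the probes as low or lower in H460C and 38% in H460R. The median ratio of all tested probes was 0.002 in H460C and 0.01 in H460R, and the median SD of the H460R replicates was 0.0581, between the SD of SLFN11 (0.0376) and that of SLFN5 (0.0923).

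**Figure D3:**
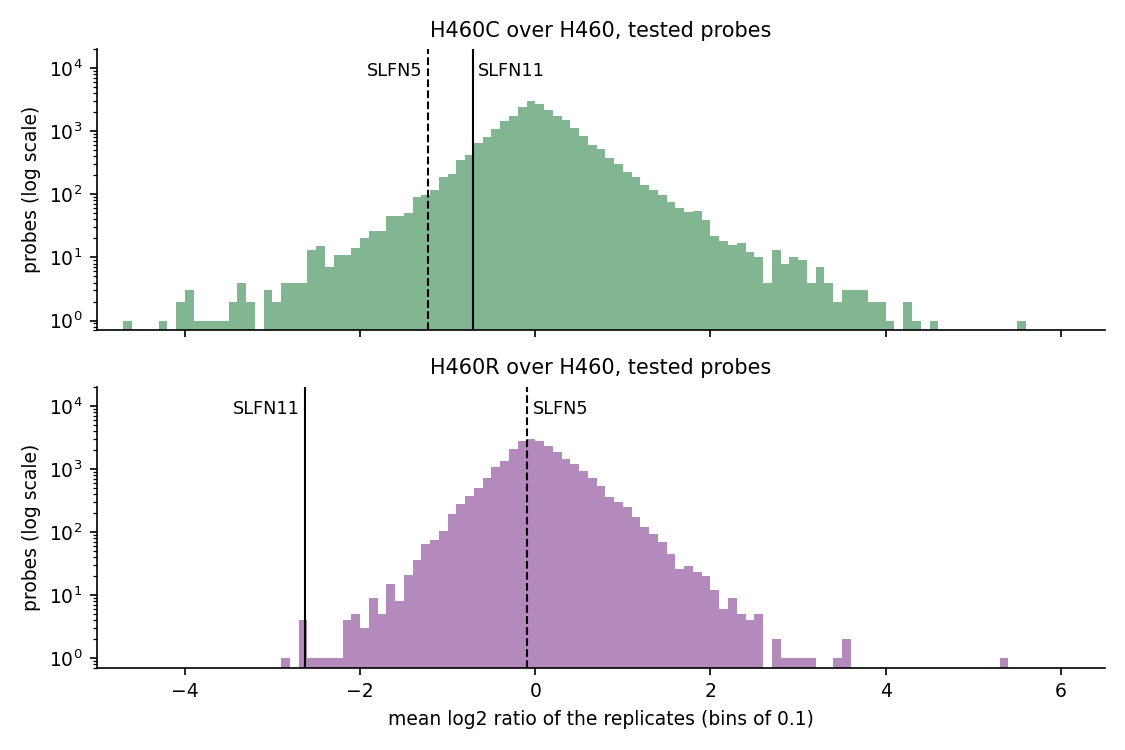
Number of tested probes (log axis) by mean log2 ratio in bins of 0.1, for H460C over H460 (top) and H460R over H460 (bottom), with the SLFN11 ratio as a solid line and the SLFN5 ratio as a dashed line. SLFN11 stands at -2.63 at the low end in H460R and at -0.71 within the distribution in H460C, and SLFN5 stands at -1.23 in H460C and at -0.09, near the center, in H460R.

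Rank Products, which tests the product of the ranks of a probe in the replicates, called 128 probes higher (0.492%) and 115 lower (0.442%) in H460C and 125 higher (0.481%) and 113 lower (0.434%) in H460R at an FDR of 0.05. SLFN11 was among the probes called lower in H460R, and neither member was called in H460C. These calls come from the ratios that chose the genes and are given as a description. Between the populations, SLFN11 was 3.78-fold higher in H460C than in H460R (log2 difference 1.92), and SLFN5 was 2.2-fold lower (-1.14). For SLFN11 this sets H460C arrays of 1 dye orientation against H460R arrays of both. On the Cy3 arrays alone SLFN11 was -0.71 in H460C and -2.75 in H460R. The SLFN11 difference ranked 155 among 26014 probes from the top, with 0.596% of the probes as high or higher, and 3.3% of the probes had a difference as low as that of SLFN5 or lower.

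The genes whose log2 ratios lay nearest to those of SLFN11, by Euclidean distance over the 6 arrays on which its spot carried no mark, were KLHDC7B (distance 0.775), KLF2 (0.98), PSAT1 (1.14), PHGDH (1.29) and CBS (1.31). Over all 8 arrays of the authors' table the nearest were KLHDC7B (0.977), KLF2 (1.13), PSAT1 (1.15), CBS (1.5) and EIF4EBP1 (1.6), so 4 of 5 were named from both sources. The nearest of them, KLHDC7B, had a mean ratio of -0.86 in H460C and of -2.46 ± 0.11 (SD, n = 2) in H460R. Its probe did not pass the stricter filter on dim probes, and its closeness to SLFN11 depended on the processing. In H460R it was -3.44 with a normexp offset of 0 and -4.52 with the log ratios of Feature Extraction. SLFN11 was -3.12 and -3.48 in the same settings. The other genes had mean ratios between -1.63 and -0.76 in H460C and between -2.55 and -2.05 in H460R. The other KLF2 probe gave -0.25 and -0.3 and so went against the probe named here.

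The genes around the Schlafen cluster did not share the low SLFN11 ratio. Of the 10 protein-coding genes on each side that the array holds, in RefSeq order, 12 passed the filter. Their mean log2 ratios lay between -0.48 and 1.14 in H460R and between -0.51 and 0.53 in H460C, with medians of 0.05 and -0.24. Rank Products called 0 of them in either population. Its unadjusted p was taken as the smaller of those for higher and for lower, without doubling. It was under 0.05 for 1 neighbor in H460R and 0 in H460C, compared to 18.2% and 18.6% of all probes. Limma without a minimum fold called 11 in H460R and 10 in H460C, where it called 68.4% and 70.8% of all probes. NLE1, the nearest tested gene before the cluster, had ratios of -0.39 in H460C and -0.41 in H460R. TAF15, which encodes an RNA-binding protein, had a ratio of 0.53 in H460C, with 0.21 in replicate 1 and 0.85 in replicate 2. It was the largest of the neighbors there, but 1 of its spots carried an outlier mark, and with the marks ignored the ratio was 0.18. RASL10B came next, with 0.46.

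RDM1, which encodes a protein with a RAD52 motif, stood apart among the neighbors. Its ratio was 1.14 ± 0.022 (SD, n = 2) in H460R, the largest of the neighbors there, and -0.32 in H460C. In the direct comparison of H460C with H460R by limma, which called 27.9% of all probes higher in H460C and 27.3% higher in H460R, 3 of the 12 neighbors were higher in H460C and 5 higher in H460R, and without H460R replicate 2 the total was 5 in place of 8. RDM1 was the only neighbor past 2-fold, with a log2 difference of -1.46 ± 0.061 (SE, adjusted p = 0.000106). Limma took the H460C ratios as 2 samples, here and in all direct comparisons.

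**Figure D4:**
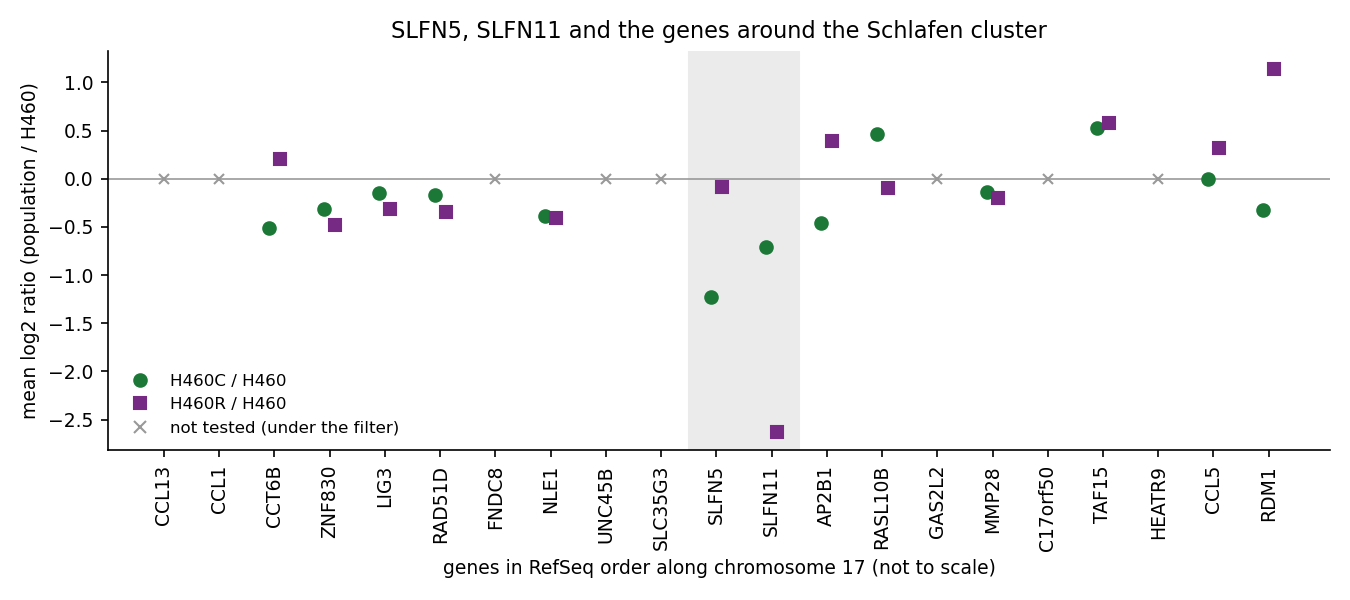
Mean log2 ratio over H460 of 19 of the 20 genes around the Schlafen cluster in RefSeq order along chromosome 17 (x axis, not to scale), with H460C as green circles, H460R as purple squares, crosses for genes under the filter on dim probes, and the cluster shaded with its 2 measured members. The ratio of -2.63 of SLFN11 in H460R stands below the tested neighbors, which lie between -0.48 and 1.14.

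The 6 lists of genes that act with the Schlafen proteins were drawn from general knowledge, with earlier results of these data known. They held 72 genes. Shares are over all probes, whereas the 65 tested genes were each read from their brightest probe. Rank Products called 0 of them in either population. An unadjusted p under 0.05, in the direction with the smaller p, was reached by 25 of them in H460C and by 15 in H460R. Among all probes the shares were 18.6% and 18.2%. Limma with a minimum of 2-fold called 9 of them higher and 1 lower in H460C, where it called 2.36% of all probes higher and 1.5% lower. In H460R it called 1 higher and 0 lower, where it called 1.05% higher and 0.35% lower. In the direct comparison 36 of the 65 were higher in H460C (55.4%, compared to 27.9% of all probes) and 13 higher in H460R (20%, compared to 27.3%).

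Genes of RPA and of the ATR-CHK1 replication checkpoint, which senses the forks that SLFN11 binds, were mostly above 0 in both populations. The direct comparison found 7 of 15 tested genes higher in H460C and 2 higher in H460R, and 6 did not pass the test. Among all probes the shares were 27.9% and 27.3%. The median ratio was 0.39 in H460C and 0.28 in H460R. RPA3, the small subunit of RPA, had ratios of 1.46 in H460C and 1.41 ± 0.11 (SD, n = 2) in H460R, and limma with a minimum of 2-fold called it higher in both. TIMELESS, a fork protection factor, was 1.53 in H460C and 0.36 ± 0.12 in H460R, with a difference of 1.17 ± 0.077 (SE, limma adjusted p = 0.000296). The other TIMELESS probe gave 0.27 and 0.2 and did not pass the direct test. CHEK1, the kinase downstream of ATR, had ratios of 0.87 and -0.12.

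Replication licensing genes and subunits of the CRL4 ubiquitin ligase, through which SLFN11 is known to act on the licensing factor CDT1, were the list with the highest median in H460C. The median was 0.83 in H460C and 0.28 in H460R. In the direct comparison 11 of 15 genes were higher in H460C, 2 were higher in H460R and 2 did not pass. Among all probes 27.9% were higher in H460C and 27.3% higher in H460R. CDC6, which loads the replicative helicase, was 1.96 in H460C and 0.96 ± 0.3 (SD, n = 2) in H460R. MCM7, a helicase subunit, was 1.87 and 0.53 ± 0.15, with a difference of 1.35 ± 0.086 (SE, limma adjusted p = 0.000279). MCM4, another subunit, was 1.44 in H460C and had the largest ratio of the list in H460R (0.99). CUL4A and CUL4B, the scaffolds of the ligase, were the 2 genes higher in H460R, with differences of -0.44 and -0.51. The share of dividing cells was not measured, and its part in these values was not tested.

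Most of the regulators of SLFN11 expression called in the direct comparison were higher in H460C than in H460R. Of 15 genes, 10 were tested, and FLI1 and SPI1 of the ETS family were among those not well above background. In the direct comparison 6 were higher in H460C, 1 was higher in H460R and 3 did not pass. Of all probes, 27.9% were called higher in H460C and 27.3% higher in H460R. The median was 0.15 in H460C and -0.4 in H460R. EZH2, the methyltransferase of histone H3 lysine 27, was 0.68 in H460C and -0.44 ± 0.15 (SD, n = 2) in H460R, with a difference of 1.12 ± 0.085 (SE, limma adjusted p = 0.000433). DNMT3B, a de novo DNA methyltransferase, was 1.46 and 0.21 ± 0.15, with a difference of 1.25 ± 0.13 (adjusted p = 0.00107 by limma). HDAC3, a histone deacetylase, had the lowest ratio of the list in H460R (-0.64), and ETS1 had ratios of -0.55 and -0.4. In H460R the measured DNA methyltransferases DNMT1, DNMT3A and DNMT3B had ratios of -0.44, -0.4 and 0.21. The part of these regulators in the SLFN11 values was not tested.

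JAK1 gave the largest difference of all the lists. Of the 10 genes of the type I interferon receptor and its JAK-STAT pathway, which induces Schlafen genes, 3 were higher in H460C. Another 5 were higher in H460R and 2 did not pass, with medians of -0.02 in H460C and 0.13 in H460R. The shares of all probes were 27.9% higher in H460C and 27.3% higher in H460R. JAK1, a kinase bound to the receptor, was -1.46 in H460C and 0.81 ± 0.28 (SD, n = 2) in H460R, with a difference of -2.27 ± 0.14 (SE, limma adjusted p = 0.000241). The other JAK1 probe gave -1.63 and 0.05, with a difference of -1.67 that also passed. IRF9, the DNA-binding subunit of the interferon-activated complex ISGF3, had ratios of -1 in H460C and -0.87 ± 0.017 in H460R, the lowest of the list in H460R. STAT2, its partner in this complex, had ratios of -0.33 in H460C and -0.11 in H460R.

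Genes that handle the tRNAs cleaved by SLFN11 or that signal from stalled ribosomes gave medians of 0.07 in H460C and 0.08 in H460R. Of 12 tested genes, 7 were higher in H460C, 2 were higher in H460R and 3 did not pass. Among all probes 27.9% were higher in H460C and 27.3% in H460R. MAP3K20, the kinase that senses stalled ribosomes, was 1.89 in H460C and 0.11 ± 0.037 (SD, n = 2) in H460R, with a difference of 1.77 ± 0.059 (SE, limma adjusted p = 7.19e-05). The other MAP3K20 probe gave 1.17 and -0.35 and also passed. SARS1, which charges tRNA-Ser in the cytosol, was the lowest of the list in both populations, with -1.77 in H460C and -1.29 ± 0.063 in H460R. LARS1, which charges tRNA-Leu, was 1.21 and 1.

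Of the SLFN12 partners, PDE3A had ratios of -0.67 in H460C and 0.01 in H460R, and the related phosphodiesterase PDE3B had ratios of 0.83 and 0.32. In the direct comparison PDE3A was higher in H460R and PDE3B was higher in H460C. SLFN12 itself was not well above background on any array.

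**Figure D5:**
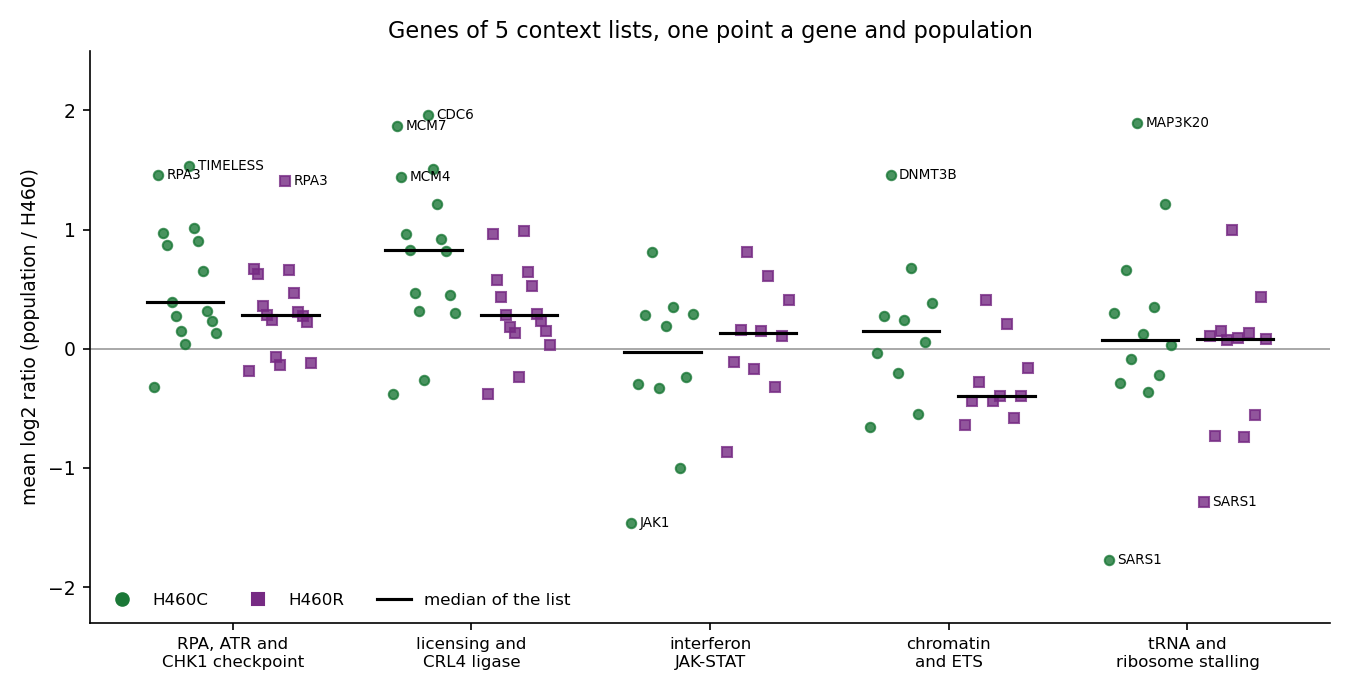
Mean log2 ratio over H460 of the tested genes of the 5 lists with 10 or more of them, 1 point a gene, with H460C as green circles, H460R as purple squares and the median of each list as a black line. The licensing list has its median at 0.83 in H460C and 0.28 in H460R, JAK1 lies at -1.46 in H460C, and SARS1 is the lowest gene of the plot in both populations.

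The labelled cell type was checked on marker genes. The keratins KRT8, KRT18 and KRT19 were well above background in all 16 array channels, and EPCAM was so in 4 of 4 H460C, 3 of 4 H460R and 7 of 8 H460 channels. CDH1, E-cadherin, and the endothelial marker PECAM1 were well above background in the 4 H460C channels and in 0 of the others. VWF, also endothelial, was so in 3 of 4 H460C, 4 of 4 H460R and 4 of 8 H460 channels, and CDH5 in 1 H460 channel. The leukocyte markers PTPRC and LCP2 were so in 0 of 16 channels, whereas CD14 was so in all 16 and CD3E in 4 of 4 H460C, 4 of 4 H460R and 6 of 8 H460 channels. Of the fibroblast markers, PDGFRB was so in all 16 channels and DCN in 1 of 4 H460C, 4 of 4 H460R and 8 of 8 H460 channels. Their part in the Schlafen values was not tested.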

How the data were processed

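RNA of H460C, H460R and H460 cells was measured on 8 dual-color arrays. Spots had been quantified by the authors with Feature Extraction (version 10.1.1.1, per the file headers). The values used here were the median intensities deposited for each spot and its local background, which carry no normalization. The deposited marks (0 or 1) for saturated spots, outliers and signals well above background were used as given. The deposited log10 ratios of red over green, which the program had background-subtracted and dye-normalized, entered an alternative. In the file of 1 array these had lost their decimal points, so the deposited column is a score without a scale, and it was divided by 10 to the power of 9. The log2 ratios of the authors' processed matrix, made with limma per the labels and already turned to the population over H460, are given beside the main values. Its background correction is not given in the sources used here, and its columns without a sample numbered 0.

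Spot and background medians were corrected by normexp (limma, offset 50) and, after removal of control spots, normalized by loess within each array. Spots with an outlier mark in a channel were taken as missing. The 43376 spots gave 41000 probes, and each dye-swap pair was averaged into 1 ratio. The filter kept probes with at least 0.5 of their spots well above background in all array channels of H460C, of H460R or of H460 (26046 probes, 26014 with all ratios). Precision is limited by how many arrays there are. Of 25074 probes with RefSeq accessions, 23958 matched a symbol in the RefSeq gene list of GRCh38.p14, which served for names, gene order and promoter sequences. The brightest probe stood for its gene.

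Each population was tested against H460 with Rank Products on 2 ratios (exact distribution of the product of 2 ranks, Benjamini-Hochberg, FDR 0.05), so the spread of the H460 RNA itself is not included. H460C and H460R were compared with limma on the 4 ratios (two-sided, 2 residual and 3.24 prior degrees of freedom, Benjamini-Hochberg, 0.05). The difference between replicates was measured in each dye orientation, and the correlation of the orientations across probes was -0.0116 in H460C and 0.268 in H460R. The tests still took the H460C ratios as 2 samples. The members and the gene lists were chosen with earlier results of these data known, and no call of a member is read as a test. The text names every member probe, the list genes and neighbors called past 2-fold, those with the largest ratio of a list in each population, and the 5 genes nearest to SLFN11. Some genes that this rule or a list holds are not reported here. Other genes given as examples of a list were chosen after their values were seen. R 4.3.3, limma 3.58.1, data.table (version 1.17.8) and matplotlib 3.10.9 were used. The tests were checked on simulated ratios with independent replicates and few changed probes. That setting differs from these data, so it does not check the p-values given here.

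As alternatives, ratios were taken from Feature Extraction, without subtraction of background, with offset 0, with median centring or from the authors' matrix. The filter was removed or made stricter (20543 probes), the arrays of 1 dye orientation were used alone, each replicate was left out, and the probes of a gene were averaged. Rank Products was replaced by limma, with a minimum log2 ratio of 1 or none, and the direct comparison was run with the replicate number as a block and with H460C averaged into 1 sample. Ignoring the outlier marks was chosen after seeing the data.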

Additional observations from a re-analysis of the deposited data

How the results depend on the processing

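SLFN11 in H460R was -3.48 with the log ratio that Feature Extraction computed, -3.12 with a normexp offset of 0, -2.7 without background subtraction, -2.68 in the authors' table, -2.48 with median centring, -2.51 on the Cy5 arrays alone and -2.75 on the Cy3 arrays alone, and between -2.65 and -2.6 without 1 replicate. SLFN11 in H460C was -0.8, -0.97, -0.64 and -0.59 with the software's log ratio, median centring, the authors' table and the outlier marks ignored, and between -0.74 and -0.68 without 1 replicate. On the Cy5 arrays alone SLFN11 had no value in H460C, since both spots were marked. SLFN5 in H460C was -1.43, -1.28, -1.3, -1.04 and -1.29 with the software's log ratio, no background subtraction, offset 0, median centring and the authors' table, -1.41 and -1.05 on the Cy5 and Cy3 arrays alone, and between -1.24 and -1.23 without 1 replicate. SLFN5 in H460R was 0.08 with median centring, -0.29 and 0.11 on the Cy5 and Cy3 arrays alone, and between -0.16 and -0.03 without 1 replicate. SLFN11 kept its sign in both populations under all of these, and SLFN5 kept its sign in H460C.

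Counts moved most with the test. Limma against 0 called 18425 probes in H460C and 17783 in H460R, 60 and 52 of the list genes and 10 and 11 of the neighbors, and limma with a minimum log2 ratio of 1 called 1006 and 365 probes and 10 and 1 list genes, compared to 243 and 238 probes and 0 list genes with Rank Products. Rank Products called 1 list gene in H460R with the software's log ratio (CLSPN, with CCL5 as 1 neighbor), with the authors' table (SARS1) and on the Cy5 arrays alone (SARS1), 1 in H460C on the Cy5 arrays alone (MAP3K20), and 1 in each population without the filter (SARS1). It needs 2 ratios and could not be run without 1 replicate of the population tested. In the direct comparison, 14355 probes, 49 list genes and 8 neighbors passed. These numbers were 7720, 29 and 5 with median centring and 8290, 31 and 5 on the Cy5 arrays alone, and without 1 replicate they were between 11177 and 12465, between 40 and 44, and between 5 and 6 (5 without H460R replicate 2). The causes were not tested.

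The replicate numbers are shared by H460C and H460R, but the labels do not say that they mark a common culture or day. The replicate differences of the 2 populations correlated across probes with r = 0.207, with 2 pairs only. With the replicate number as a block, 15565 probes passed the direct comparison, with 52 list genes and 7 neighbors. Of the called differences between H460C and H460R that were recomputed and are reported here, those of PDE3B, MCM4 and SARS1 no longer passed under 2 to 3 alternatives each, the Cy5 arrays alone among them, that of PDE3A no longer passed on the Cy5 arrays alone (-0.47) and that of CUL4A with median centring (-0.43), and none changed sign. Leaving out a replicate ended the call of MCM4 (0.37 without H460R replicate 2). The TAF15 difference (-0.05, not called) was called with the outlier marks ignored (-0.4), in the authors' table (-0.42), on the Cy3 arrays alone (-0.32) and without H460C replicate 2 (-0.38). KLF2 was read from its other probe on the Cy5 arrays alone, where its ratio in H460R was -0.45 and was not called.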
